A study of Mus musculus with 8 samples.

Results

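The genes described here belong to the unfolded protein response and the integrated stress response, the programmes by which a cell answers misfolded protein in the endoplasmic reticulum (ER), lack of amino acids and related stresses. They were chosen as 40 named genes by symbol, and 39 of them have a row among the 20888 genes of the expression table. Chac1, a glutathione-degrading enzyme gene downstream of ATF4, has no row there and is not analysed here. RNA was sequenced from sorted blasts of mouse T-ALL, an acute leukaemia of T cell precursors, taken from peripheral blood, with 4 libraries labelled as homozygous mutant for Kdm6b and 4 control libraries labelled wild type for Kdm6b. Kdm6b encodes a histone H3 demethylase, and the series title links it to stress caused by the oncogene NOTCH1. Mice of both groups carried Vav-CRE, a recombinase transgene active in blood-forming cells, so recombination is not limited to T cells or to the leukaemia. The labels do not give age or sex, and they do not say whether the 4 libraries of a group came from separate mice, so p-values reflect only how these libraries vary, and that variation may be technical.

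The unfolded protein response starts from sensor proteins in the ER membrane. IRE1alpha, encoded by Ern1, splices Xbp1 mRNA so that active XBP1 protein is made, ATF6 is cut by proteases into an active transcription factor, and the kinase PERK, encoded by Eif2ak3, phosphorylates the translation factor eIF2. XBP1 and ATF6 raise ER chaperones and the machinery that degrades misfolded ER protein. Phosphorylated eIF2 lowers translation in general but raises that of ATF4, whose targets supply amino acids and serine, and PERK shares this step with the amino acid sensor GCN2, encoded by Eif2ak4. The pathway is closed by feedback genes, above all Ppp1r15a (GADD34), which brings a phosphatase to eIF2. Gene-level RNA values show neither Xbp1 splicing, nor ATF6 cleavage, nor eIF2 phosphorylation.

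Kdm6b itself was at 587 ± 92.2 CPM (SD, n = 4) in the KO-labelled libraries and 514 ± 135 CPM (SD, n = 4) in the controls, where CPM is counts scaled to a common library total. A level summed over the whole gene also takes in exons that a deletion may leave in place and so tests neither label nor deletion, and the mutant group is called KO-labelled throughout. Estimated depth was 14017970 to 18244210 reads in the KO-labelled libraries and 18263010 to 22070870 reads in the controls. The sex-linked list split the groups, with Xist at 264 to 455 CPM in the KO-labelled libraries and 0 to 0.831 CPM in the controls, so the sex and the genotype label cannot be told apart. Defining T cell genes were high in all 8 libraries, with a summed level of 14840 to 17058 CPM over 11 genes in the KO-labelled libraries and 12382 to 17297 CPM in the controls. Summed levels overlapped between the groups for markers of B cells, neutrophils and monocytes, erythroid cells, platelets and NK cells. Plasma cells have a strong unfolded protein response, and of 4 tested plasma cell genes 1, Sdc1, fell, beside 2.32% over all genes. Sdc1 was at 1.28 to 10.2 CPM in the KO-labelled libraries and 11.9 to 80.7 CPM in the controls. The summed level of the list was 9.27 to 24.1 CPM in the KO-labelled libraries and 20.2 to 91.7 CPM in the controls, where Sdc1 made up most of it. Pou2af1, Mzb1 and Prdm1 were not called, with log2 changes of -0.09, 0.33 and -0.39. The defining plasma cell gene Jchain was at 0.357 to 2.54 CPM in the KO-labelled libraries and 0.105 to 0.728 CPM in the controls. In bulk RNA, fewer cells of a type and less RNA per cell cannot be told apart.

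Promoter stretches are shown for the gene that rose and for 4 genes of the XBP1/ATF6 arm that hold the ER stress element core. The core is the full ER stress element, known to bind ATF6, without its last base. The stretches are the 120 bases before each gene's start from RefSeq (build GRCm38.p6), read 5′ to 3′ on the strand of the gene. Capitals mark the cyclic AMP response element TGACGTCA in Ppp1r15a, the ER stress element core (CCAAT and CCAC with 9 bases between them) on either strand in the others, and in Herpud1 also the CEBP-ATF response element TGATGNAAN, read there on the opposite strand.
Ppp1r15a, chr7:45526269-45526388, minus strand: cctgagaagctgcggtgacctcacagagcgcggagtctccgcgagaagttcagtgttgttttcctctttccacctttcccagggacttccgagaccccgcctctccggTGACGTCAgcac
Hspa5, chr2:34771970-34772089, plus strand: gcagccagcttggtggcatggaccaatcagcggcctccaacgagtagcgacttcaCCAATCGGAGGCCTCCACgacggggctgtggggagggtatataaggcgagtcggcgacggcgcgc
Hsp90b1, chr10:86705445-86705564, minus strand: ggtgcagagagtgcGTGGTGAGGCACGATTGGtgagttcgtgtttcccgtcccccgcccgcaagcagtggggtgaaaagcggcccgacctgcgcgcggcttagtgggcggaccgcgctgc
Pdia4, chr6:47813513-47813632, minus strand: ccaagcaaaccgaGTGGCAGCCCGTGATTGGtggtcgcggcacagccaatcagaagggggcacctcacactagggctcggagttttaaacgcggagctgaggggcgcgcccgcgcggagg
Herpud1, chr8:94386309-94386428, plus strand: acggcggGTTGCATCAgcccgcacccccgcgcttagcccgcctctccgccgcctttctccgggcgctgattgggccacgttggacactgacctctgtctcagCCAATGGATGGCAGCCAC

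Promoters were found for 35 of the 40 members, and both strands of the 250 bases before each start were searched. The ER stress element core was present in 11 of the 35, against 0.320% of all 32851 promoters of this length. All 11 belong to the XBP1/ATF6 arm, of which 16 genes were searched: Calr, Canx, Creld2, Dnajc3, Herpud1, Hsp90b1, Hspa5, Pdia3, Pdia4, Pdia6 and Syvn1. The stricter form, the core followed by G, was in 8 of the 35 and in 0.113% of all promoters. Among the genes shown above, Hspa5 and Hsp90b1 matched it and Pdia4 did not. In Herpud1 the core ends at the last base searched, so the stricter form could not be matched there. The element TGACGTCA was found in 1 member, Ppp1r15a, from 12 to 5 bases before its start, and in 1.55% of all promoters. The CEBP-ATF element was in Chac1, Herpud1 and Slc7a11, and in 3.44% of all promoters. The unfolded protein response element TGACGTGG, in 0.563% of all promoters, and the heat shock element (GAA, TTC and GAA with gaps of 2 bases), in 0.466%, had no match in the 35 windows. The AP-1 site TGANTCA was in 4 of the 35, Ddit3, Eif2ak3, Hspa5 and Sel1l, and in 6.75% of all promoters, and the window of Ppp1r15a held none. These matches are letters in a window and were not tested for binding.

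Of the 39 members, 1 rose in the KO-labelled libraries, 0 fell and 38 did not pass the test, which was limma on log2(CPM + 1) over 13840 genes with Benjamini-Hochberg adjustment and a threshold of 0.05. Over all genes tested, 3.53% were called, 1.21% as higher and 2.32% as lower. The gene that rose was the feedback gene Ppp1r15a. At an unadjusted limma p below 0.05 there were 5 members, Ppp1r15a with a higher level and Ern1, Phgdh, Psat1 and Ddit4 with lower ones. Of all genes 19.3% passed that mark, 7.62% with a higher level and 11.7% with a lower one. The values of the groups did not overlap for 1 member, again Ppp1r15a, and for 13.2% of all genes, 5.23% with the KO-labelled libraries above and 7.97% with them below. All 39 passed the filter on low values. The median log2 change of the members was -0.07, and that of all genes was -0.03. For 31 of the 39 members the 95% interval of the log2 change lay within a 2-fold change in either direction, and it did so for 11297 of the 13840 genes. A member that was not called is therefore bounded by its interval and is not shown to be unchanged.

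**Figure D1:**
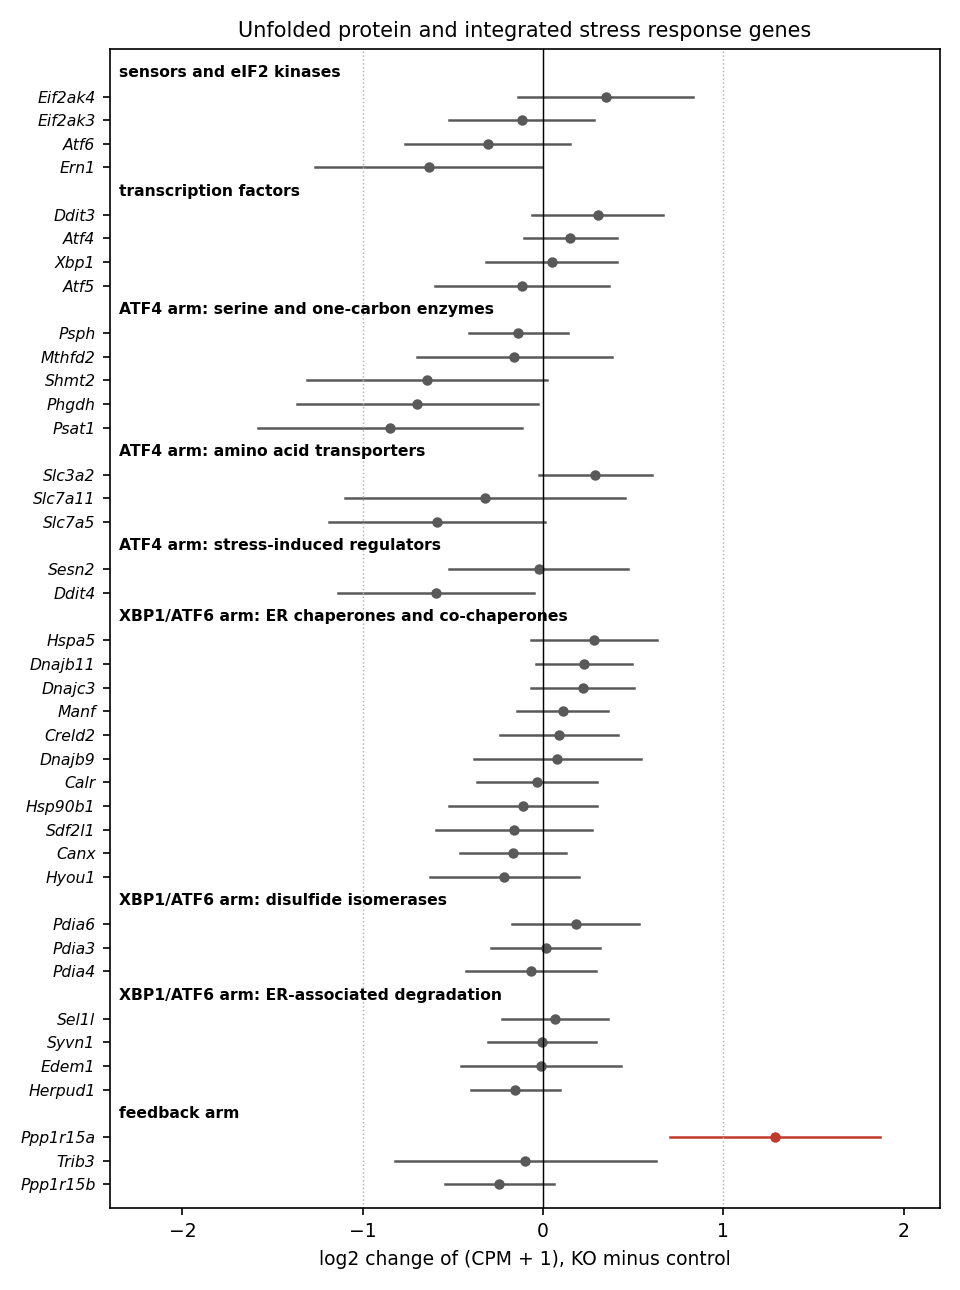
Log2 change of CPM + 1, KO-labelled minus control, for the 39 measured members grouped by role. Points are limma estimates, bars 95% intervals (n = 4 each), dotted lines a 2-fold change, and red marks the called gene. Ppp1r15a stands at 1.29, while the 18 genes of the XBP1/ATF6 arm lie between -0.21 and 0.28.

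Ppp1r15a (ENSMUSG00000040435.12, chromosome 7 from 45522916 to 45526268, minus strand, mm10) encodes the inducible subunit that directs protein phosphatase 1 to eIF2 and so ends the translation block. Its level was 166, 145, 71.6 and 83.2 CPM in KO-labelled replicates 1 to 4, against 44.0, 60.2, 43.8 and 33.2 CPM in control replicates 1 to 4. Every KO-labelled library lay above every control library, and KO-labelled replicates 1 and 2 lay well above replicates 3 and 4. The means were 117 ± 46.2 CPM in the KO-labelled libraries and 45.3 ± 11.1 CPM in the controls (SD, n = 4 each). This is a log2 change of 1.29 ± 0.27 (SE; 95% interval 0.70 to 1.87; limma adjusted p = 0.0262). The authors' deposited table of changed genes holds 218 of the 20888 genes, comes from the same libraries and uses a 2-fold threshold. Ppp1r15a is the 1 member listed there, with a signed fold of control over KO of -2.57, the minus sign meaning higher in KO. It is also the 1 member whose estimate in the limma fit lay beyond 2-fold. The call did not hold without every library: the limma adjusted p was 0.0698, 0.0962 and 0.0518 without KO-labelled replicates 1, 2 and 4, and 0.0820 and 0.0665 without control replicates 1 and 3. With each of the 8 libraries left out in turn the log2 change lay between 1.09 and 1.49.

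Some immediate early and heat shock genes also rose in the KO-labelled libraries. Of 13 tested immediate early genes 5 rose and 0 fell, beside 1.21% higher and 2.32% lower over all genes. The summed level of the list was 2408 to 3007 CPM in the KO-labelled libraries and 1566 to 2285 CPM in the controls. Of 11 tested heat shock genes 5 rose and 0 fell, beside the same shares over all genes. Their sums were 4579 to 5925 CPM in the KO-labelled libraries and 2935 to 4837 CPM in the controls. The AP-1 gene Jun was at 274, 268, 98.7 and 43.1 CPM in KO-labelled replicates 1 to 4 and at 17.4 ± 2.37 CPM in the controls (SD, n = 4). The heat shock gene Hspa1a was at 86.0, 76.0, 12.0 and 5.24 CPM in the same KO-labelled libraries and at 0 to 0.477 CPM in the controls, and reads shared with its near-identical copy Hspa1b leave that value uncertain. Within the KO-labelled libraries Jun, Fos and Hspa1a, named after their values were seen, were highest in replicates 1 and 2, as was Ppp1r15a. The immediate early sum was 2713, 3007, 2641 and 2408 CPM in KO-labelled replicates 1 to 4, also highest in replicates 1 and 2. The heat shock sum was 4664, 4579, 4914 and 5925 CPM in KO-labelled replicates 1 to 4, highest in replicate 4. Its 2 most abundant genes, Hspa8, which rose, and Hsp90ab1, which was not called, also had their top KO-labelled value in replicate 4, at 2109 CPM and 1811 CPM. Of the 2 most abundant immediate early genes, Btg2 was not called and Zfp36 rose. Btg2 was at 1149, 1197, 1247 and 1237 CPM in KO-labelled replicates 1 to 4, highest in replicates 3 and 4. In the controls it lay between 850.5 and 1350 CPM. Zfp36 was at 848, 1003, 853 and 779 CPM in KO-labelled replicates 1 to 4, highest in replicates 2 and 3. In the controls Zfp36 lay between 431 and 667 CPM, and its log2 change was 0.73 (limma adjusted p = 0.0252). The part of these genes, of sex and of depth in the Ppp1r15a values was not tested.

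**Figure D2:**
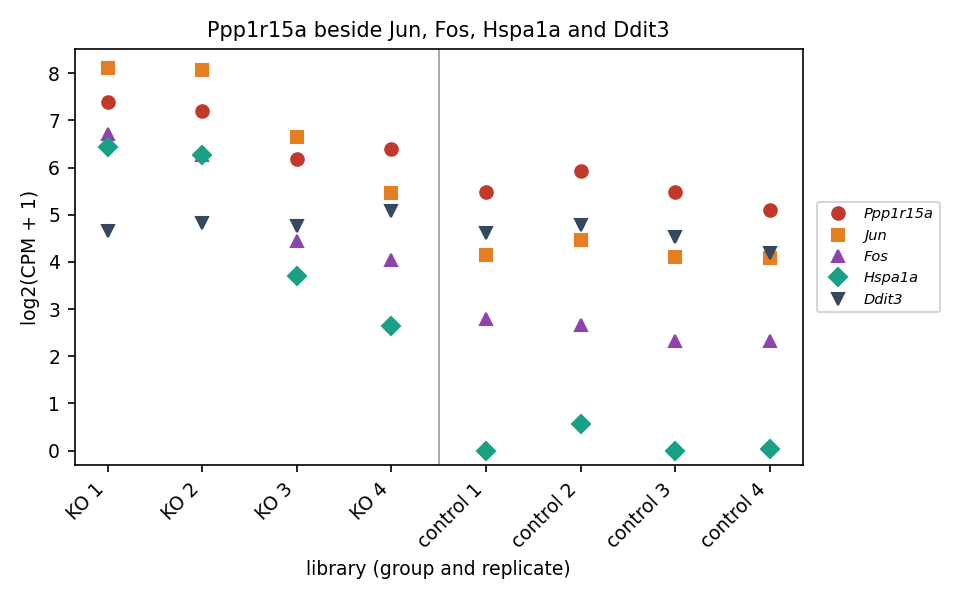
Levels of Ppp1r15a, Jun, Fos, Hspa1a and Ddit3 as log2(CPM + 1) in each of the 8 libraries, KO-labelled at left and controls at right. The first 4 genes stand highest in KO-labelled replicates 1 and 2, while Ddit3 stays between 17.1 and 32.8 CPM over all libraries.

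The exons of Ppp1r15a overlap those of Tulp2 on the opposite strand, and the strand setting of the counting is not given in the sources used here. Tulp2 was at 3.52, 2.43, 0.603 and 0.564 CPM in KO-labelled replicates 1 to 4 and at 0.0906 to 0.364 CPM in the controls, and it did not pass the filter on low values. As counted, the level of Tulp2 was small beside that of Ppp1r15a in every library, and it was highest where Ppp1r15a was highest. This does not show how the reads of shared exons were assigned. Reads of the overlapping exons cannot be told apart between both genes.

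The other feedback genes did not pass the test. Ppp1r15b, the constitutive partner of Ppp1r15a, was at 66.2, 81.1, 87.1 and 61.0 CPM in KO-labelled replicates 1 to 4, against 82.8, 86.2, 97.6 and 80.8 CPM in control replicates 1 to 4. The groups overlapped, and the log2 change was -0.24 ± 0.14 (SE, 95% interval -0.54 to 0.06, limma adjusted p = 0.358). Trib3, a pseudokinase gene induced by ATF4 and CHOP that restrains ATF4, was at 1.97, 3.42, 1.26 and 1.97 CPM in KO-labelled replicates 1 to 4, against 2.46, 3.74, 3.09 and 0.725 CPM in control replicates 1 to 4. Its level was low and overlapped between the groups, with a log2 change of -0.10 ± 0.33 (SE, limma adjusted p = 0.906). The ratio of Ppp1r15a to Ppp1r15b within a library was 0.822 to 2.51 in the KO-labelled libraries and 0.410 to 0.698 in the controls. Since Ppp1r15a entered this ratio after its values were seen, the ratio is given without a test.

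Among the transcription factors no gene was called. Atf4, which encodes the factor made when eIF2 is phosphorylated, was at 101, 112, 115 and 121 CPM in KO-labelled replicates 1 to 4, against 85.4, 106, 103 and 110 CPM in control replicates 1 to 4. The ranges overlapped, and the log2 change of 0.15 ± 0.12 (SE) had a 95% interval from -0.11 to 0.41 (limma adjusted p = 0.523). Ddit3, which encodes CHOP, a factor of prolonged ER stress that acts on Ppp1r15a, was at 24.4, 27.3, 26.2 and 32.8 CPM in KO-labelled replicates 1 to 4, against 23.6, 26.6, 22.0 and 17.1 CPM in control replicates 1 to 4. Its log2 change was 0.30 ± 0.17 (SE, 95% interval -0.06 to 0.67, limma adjusted p = 0.342), and exons of the methionine tRNA synthetase gene Mars overlap it on the opposite strand. Ddit3 was highest in KO-labelled replicate 4 and Ppp1r15a in replicates 1 and 2, and the part of CHOP in the Ppp1r15a values was not tested. The ratio of Ppp1r15a to Ddit3 was 6.82, 5.33, 2.73 and 2.54 in KO-labelled replicates 1 to 4 and 1.86 to 2.26 in the controls. Here too Ppp1r15a entered the ratio after its values were seen, so the ratio is given without a test. Total Xbp1 was at 129 ± 10.6 CPM in the KO-labelled libraries and 128 ± 28.8 CPM in the controls (SD, n = 4 each), with a 95% interval of the log2 change from -0.31 to 0.41. Atf5, a stress-responsive relative of ATF4, stayed near 2 CPM in most libraries, at 1.43 to 2.89 CPM in the KO-labelled libraries and 1.64 to 2.30 CPM in the controls. Values of Atf5 are uncertain because its exons overlap Nup62 and Il4i1 on the opposite strand, and Nup62 was at 68.6 to 102 CPM in the KO-labelled libraries and 134 to 264 CPM in the controls, so that Nup62 itself fell (limma adjusted p = 0.0216).

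**Figure D3:**
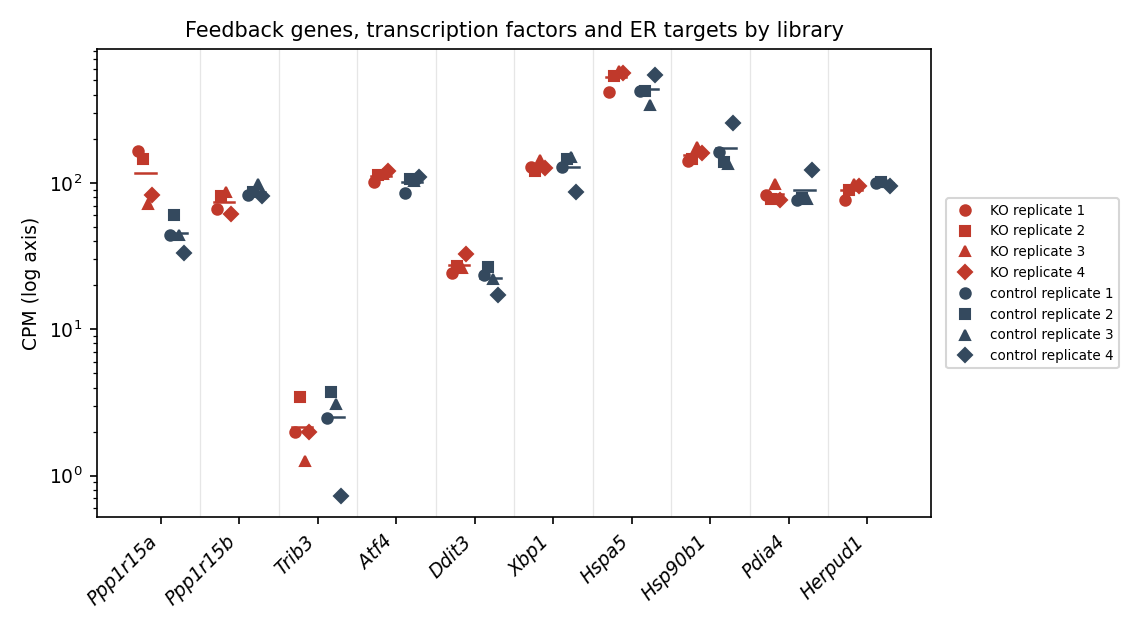
CPM on a log axis of the feedback genes, the transcription factors Atf4, Ddit3 and Xbp1, and ER targets, with KO-labelled libraries in red left of the controls in dark blue. Symbols mark replicates and lines group means (n = 4 each). Ppp1r15a separates, at 71.6 to 166 CPM in the KO-labelled libraries and 33.2 to 60.2 CPM in the controls, and the other 9 genes overlap between the groups.

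Of the 4 stress sensors 0 were called. Ern1 was at 5.12, 6.99, 5.81 and 1.90 CPM in KO-labelled replicates 1 to 4, against 7.83, 7.96, 6.96 and 7.93 CPM in control replicates 1 to 4. Replicate 2 of the KO-labelled libraries lay just above the lowest control, so the groups overlapped by a narrow margin, and the log2 change was -0.63 ± 0.29 (SE, limma adjusted p = 0.255). Without KO-labelled replicate 4, the lowest library, it was -0.32. Atf6 was at 17.3 ± 4.29 CPM in the KO-labelled libraries and 21.3 ± 3.49 CPM in the controls (SD, n = 4 each), and Eif2ak3 was at 29.8 ± 3.76 CPM in the KO-labelled libraries and 33.0 ± 7.33 CPM in the controls. Eif2ak4, the kinase gene that answers uncharged tRNA, was at 3.76 to 7.40 CPM in the KO-labelled libraries and 3.39 to 4.49 CPM in the controls, with a log2 change of 0.35 ± 0.22 (SE). The limma adjusted p of Atf6, Eif2ak3 and Eif2ak4 ran from 0.421 to 0.773.

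In the ATF4 arm, 0 of 10 measured genes were called in either direction. All but Slc3a2 had an estimate below 0, and the median log2 change was -0.45, against -0.03 over all genes tested. The lowest estimates were those of Psat1 and Phgdh, both enzymes of serine synthesis. Phgdh, which makes the first committed step from glycolysis to serine, was at 63.2, 87.4, 101 and 94.7 CPM in KO-labelled replicates 1 to 4, against 125, 94.7, 106 and 296 CPM in control replicates 1 to 4. Psat1, the next enzyme of the pathway, was at 19.7, 41.9, 47.2 and 39.6 CPM in KO-labelled replicates 1 to 4, against 63.8, 41.8, 50.9 and 125 CPM in control replicates 1 to 4. Both genes had their top value in control replicate 4 and their lowest in KO-labelled replicate 1, and otherwise the groups lay close together. The log2 change was -0.70 ± 0.30 for Phgdh (SE, unadjusted p = 0.0420, limma adjusted p = 0.239) and -0.85 ± 0.33 for Psat1 (SE, unadjusted p = 0.0272, limma adjusted p = 0.196). Without control replicate 4 these became -0.34 and -0.53.

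The mitochondrial folate enzymes followed the same outline. Shmt2, which moves a carbon from serine to folate, was at 37.0, 45.9, 64.1 and 63.6 CPM in KO-labelled replicates 1 to 4, against 73.4, 56.9, 61.3 and 164 CPM in control replicates 1 to 4. Its log2 change was -0.64 ± 0.30 (SE, limma adjusted p = 0.275), or -0.30 without control replicate 4. Mthfd2, the next folate enzyme, was at 44.2 to 68.3 CPM in the KO-labelled libraries and 45.2 to 110 CPM in the controls, and its estimate of -0.16 became 0.09 without control replicate 4. Psph, which completes serine synthesis, was at 53.2 ± 5.83 CPM in the KO-labelled libraries and 58.5 ± 5.37 CPM in the controls (SD, n = 4 each). The median over these 5 enzymes was -0.64, and -0.30 without control replicate 4. Other genes were also extreme in that library: the oncogene Myc was at 25.6 to 46.6 CPM in the KO-labelled libraries, at 47.9 to 79.7 CPM in control replicates 1 to 3 and at 292 CPM in control replicate 4. Of 10 tested proliferation genes 6 fell and 0 rose, beside 2.32% lower and 1.21% higher over all genes. Their summed level was 781 to 1217 CPM in the KO-labelled libraries and 1255 to 3129 CPM in the controls, with control replicate 4 highest. The part of proliferation in the serine gene values was not tested.

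**Figure D4:**
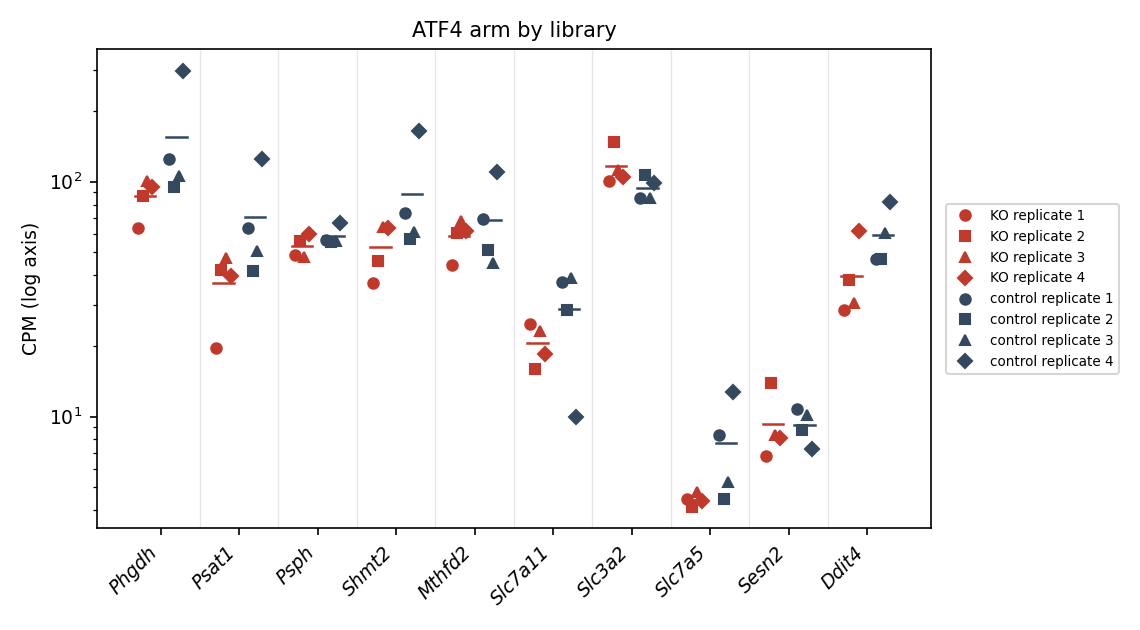
CPM on a log axis of the 10 measured genes of the ATF4 arm, with KO-labelled libraries in red left of the controls in dark blue. Symbols mark replicates and lines group means (n = 4 each). Control replicate 4, the dark diamond, is the highest of all 8 libraries for Phgdh, Psat1, Psph, Shmt2, Mthfd2, Slc7a5 and Ddit4, and the lowest for Slc7a11.

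Amino acid transporters of the ATF4 arm did not move as a group. Slc7a11, the cystine importer gene, was at 24.8, 16.0, 23.1 and 18.4 CPM in KO-labelled replicates 1 to 4, against 37.5, 28.5, 39.1 and 9.97 CPM in control replicates 1 to 4. Control replicate 4 alone lay below the KO-labelled range, and the log2 change was -0.32 ± 0.35 (SE, limma adjusted p = 0.671). Without that library the estimate was -0.75, and the gene was then called as lower (limma adjusted p = 0.0398). Slc7a5, the leucine importer gene, was at 4.44, 4.14, 4.77 and 4.37 CPM in KO-labelled replicates 1 to 4, against 8.32, 4.47, 5.29 and 12.7 CPM in control replicates 1 to 4. The 4 KO-labelled values were nearly equal while the controls ranged widely, and the log2 change was -0.59 ± 0.27 (SE, limma adjusted p = 0.268). Slc3a2, the heavy chain that both importers need, was at 116 ± 21.5 CPM in the KO-labelled libraries and 94.3 ± 10.7 CPM in the controls (SD, n = 4 each), with a log2 change of 0.29 ± 0.14 (SE, limma adjusted p = 0.295).

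The regulators of mTORC1 signalling in this arm were not called either. Ddit4 (REDD1), an inhibitor gene of mTORC1 that also answers hypoxia and glucocorticoids, was at 28.4, 38.3, 30.4 and 61.7 CPM in KO-labelled replicates 1 to 4, against 47.0, 47.1, 60.3 and 82.2 CPM in control replicates 1 to 4. Replicates 1 to 3 of the KO-labelled libraries lay below all controls and replicate 4 did not. The log2 change was -0.59 ± 0.25 (SE, unadjusted p = 0.0352, limma adjusted p = 0.221), and without KO-labelled replicate 4 it was -0.82 (limma adjusted p = 0.0868). The gene was called as lower with array weights (log2 change -0.60, limma adjusted p = 0.0499) and without replicate 4 of both groups (-0.66, limma adjusted p = 0.0348). Sesn2, a leucine sensor gene that also restrains mTORC1, was at 6.78 to 13.9 CPM in the KO-labelled libraries and 7.25 to 10.7 CPM in the controls (log2 change -0.02 ± 0.23, SE).

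The XBP1/ATF6 arm held no called gene and estimates close to 0. Of its 18 genes, 9 had an estimate above 0 and 9 below, and the median log2 change was 0.01. For all 18 the 95% interval lay within a 2-fold change in either direction. Hspa5, which encodes BiP, the main ER chaperone and a common readout of the whole response, was at 420, 535, 584 and 559 CPM in KO-labelled replicates 1 to 4, against 421, 427, 342 and 548 CPM in control replicates 1 to 4. The groups overlapped, and the log2 change of 0.28 ± 0.16 (SE) had a 95% interval from -0.07 to 0.63 (limma adjusted p = 0.360). Hsp90b1, the ER form of HSP90, was at 156 ± 16.1 CPM in the KO-labelled libraries and 174 ± 56.6 CPM in the controls (SD, n = 4 each). The co-chaperone genes Dnajb9, Dnajb11 and Dnajc3, partners of BiP, had log2 changes of 0.08, 0.23 and 0.22. Dnajb9, Sdf2l1 and Herpud1 are among the genes most readily induced by ER stress: Dnajb9 was at 9.61 ± 1.73 CPM in the KO-labelled libraries and 9.13 ± 2.22 CPM in the controls, and Sdf2l1 was at 31.6 ± 3.48 CPM in the KO-labelled libraries and 36.4 ± 11.5 CPM in the controls (SD, n = 4 each).

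The remaining ER genes were not called either. Canx and Calr encode the lectin chaperones that hold sugar-bearing proteins. Canx was at 281, 297, 294 and 275 CPM in KO-labelled replicates 1 to 4, against 304, 286, 293 and 421 CPM in control replicates 1 to 4, with control replicate 4 far above the other 7 libraries. Calr had a log2 change of -0.03, the large chaperone gene Hyou1 -0.21, and Manf and Creld2, secreted ER stress proteins, 0.11 and 0.09. Among the disulfide isomerase genes, which form and exchange disulfide bonds, Pdia3, Pdia4 and Pdia6 had changes of 0.02, -0.07 and 0.18. Among the genes for ER-associated degradation, Sel1l and Syvn1 encode the core of the membrane ubiquitin ligase, Edem1 encodes a lectin that hands over misfolded glycoproteins, and Herpud1 encodes an adaptor of the ligase. The log2 change was 0.07 for Sel1l, 0.00 for Syvn1, -0.01 for Edem1 and -0.15 for Herpud1. Herpud1, whose promoter holds both an ER stress element core and a CEBP-ATF element, was at 89.8 ± 9.85 CPM in the KO-labelled libraries and 99.5 ± 3.15 CPM in the controls (SD, n = 4 each). The 11 genes with an ER stress element core had log2 changes from -0.17 to 0.28, with 0 called.

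Side by side, the arms had 0 of 10 measured genes called for ATF4, 0 of 18 for XBP1/ATF6 and 1 of 3 for feedback, beside 3.53% of all genes. The median log2 change was -0.45 in the ATF4 arm, 0.01 in the XBP1/ATF6 arm and -0.10 in the feedback arm, and the difference between arms was not tested. With single libraries left out the medians ran from -0.48 to -0.32 for the ATF4 arm, from -0.01 to 0.08 for the XBP1/ATF6 arm and from -0.27 to 0.08 for the feedback arm, whose median rests on 3 genes that went in different directions. Within a library, the median deviation of the ATF4 arm from the control mean was -0.56, -0.59, -0.30 and -0.25 in KO-labelled replicates 1 to 4 and -0.03, -0.31, -0.23 and 0.63 in control replicates 1 to 4, on the log2(CPM + 1) scale. Control replicate 4 stood alone above 0, and replicates 2 and 3 of the controls lay near the KO-labelled replicates 3 and 4. In the XBP1/ATF6 arm the same measure ran from -0.15 to 0.10 in the KO-labelled libraries and from -0.11 to 0.27 in the controls. Over the 39 members, control replicate 4 held the highest of the 8 values for 15 and the lowest for 11, and KO-labelled replicate 1 held the lowest for 10.

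Per length of annotated exons, the members spanned most of the range of expression in these blasts. Edem1 was highest, at 167 CPM per kb in the KO-labelled libraries and 173 CPM per kb in the controls, at percentile 97.7 of the tested genes with a known length. It was followed by Pdia3, at 164 CPM per kb in the KO-labelled libraries and 163 CPM per kb in the controls, and Hspa5, at 124 CPM per kb in the KO-labelled libraries and 103 CPM per kb in the controls. The lowest were Eif2ak4, at 0.720 CPM per kb in the KO-labelled libraries and 0.526 CPM per kb in the controls, and Ern1, at 0.606 CPM per kb in the KO-labelled libraries and 0.938 CPM per kb in the controls. Atf4 was at 47.6 CPM per kb in the KO-labelled libraries and 42.9 CPM per kb in the controls, while Atf5 and Trib3 lay at or below 1.18 CPM per kb in both groups. Edem1 was at 1182, 1149, 1042 and 930 CPM in KO-labelled replicates 1 to 4, against 993, 1282, 1462 and 729 CPM in control replicates 1 to 4. The controls held both its highest and its lowest value.

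Beyond the members, 8 further lists of pathway genes held 109 tested genes, of which 3 rose, 1 fell and 105 were not called, beside 1.21% higher and 2.32% lower over all genes. The gene that fell was Eif2s3y, the Y-linked copy of the gene for the gamma subunit of eIF2, at 0 to 0.785 CPM in the KO-labelled libraries and 110 to 136 CPM in the controls, a difference that the sex of the libraries cannot be told apart from. Its X-linked partner Eif2s3x had a log2 change of 0.01, and it and the 10 other tested genes for eIF2, its exchange factor eIF2B and eIF2 kinases were not called. Asns, which encodes asparagine synthetase, an ATF4 target whose activity bears on treatment of lymphoblastic leukaemia with asparaginase, rose. It was at 3.27, 2.92, 5.65 and 3.53 CPM in KO-labelled replicates 1 to 4, against 0.821, 1.09, 0 and 0.861 CPM in control replicates 1 to 4. The level was low but did not overlap, and the log2 change was 1.54 ± 0.28 (SE, limma adjusted p = 0.0167). At this low level the estimate depends on the pseudocount, being 2.74 with 0.1 and 0.63 with 5. Asns met the filter through the KO-labelled libraries, all above 1 CPM, while among the controls only replicate 2 was. Its place among the tested genes thus rests on the group where it is high. A filter of 5 CPM removes it, and with no filter the limma adjusted p was 0.0194. Of 12 tested genes within 1 Mb of Asns on chromosome 6, 4 fell and 0 rose, beside 2.32% lower and 1.21% higher over all genes. The same window held 2 lower of 7 tested genes around Gadd45a, 2 of 55 around Ppp1r15a and 1 of 15 around Stt3b. In each of these windows 0 rose. The call of Asns was lost without KO-labelled replicate 2 or 4 or control replicate 1 and with a pseudocount of 0.1 (limma adjusted p up to 0.0601).

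Gadd45a, a growth arrest gene that ATF4, p53 and other factors act on, also rose. It was at 20.7 ± 3.94 CPM in the KO-labelled libraries and 10.4 ± 2.93 CPM in the controls (SD, n = 4 each, log2 change 0.95, limma adjusted p = 0.0397). Under 9 of 17 alternatives Gadd45a was no longer called. Asns and Gadd45a both come from the list of further ATF4 genes, of which 8 were tested. In that list 3 estimates lay above 0 and 5 below, with a median log2 change of -0.23. Stt3b, a catalytic subunit of the ER oligosaccharyltransferase that attaches sugar chains, rose as well. It was at 98.7, 117, 92.3 and 77.3 CPM in KO-labelled replicates 1 to 4, against 58.7, 53.3, 50.1 and 53.0 CPM in control replicates 1 to 4 (log2 change 0.82 ± 0.14, SE, limma adjusted p = 0.0131, or 0.0507 without KO-labelled replicate 2). Its groups did not overlap. Of 26 tested genes for ER entry and glycosylation, the other 25 were not called.

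The remaining lists held no called gene. They were the 20 cytosolic aminoacyl-tRNA synthetases, with a median log2 change of -0.21 and the lowest p for Farsa, and the 13 further ER folding genes, with a median of -0.04 and the lowest p for Txndc11. The 18 further genes of ER-associated degradation had a median of 0.05 and the lowest p for Selenos, the 7 further transcription factors -0.02 and the lowest p for Nfe2l2, and the 5 genes for ATF6 proteases and Xbp1 ligation -0.01 and the lowest p for Mbtps1. Selenos, a selenoprotein gene of ER-associated degradation, was at 92.5 ± 11.5 CPM in the KO-labelled libraries and 64.8 ± 8.22 CPM in the controls (SD, n = 4 each, limma adjusted p = 0.0641). Farsa, a phenylalanine tRNA synthetase subunit gene, was at 213 ± 14.4 CPM in the KO-labelled libraries and 163 ± 15.1 CPM in the controls (SD, n = 4 each, limma adjusted p = 0.0794). Some alternatives called these genes as higher, 4 of 17 for Selenos and 3 of 17 for Farsa, with array weights among them for both (limma adjusted p = 0.0223 for Selenos and 0.0104 for Farsa). Named after their values were seen, Atf3 and Cebpb, partners of CHOP and ATF4 that stress induces in many tissues, did not pass the filter on low values. Atf3 was at 0 to 0.123 CPM in the KO-labelled libraries and 0.0453 to 0.364 CPM in the controls. Cebpb was at 0.214 to 0.776 CPM in the KO-labelled libraries and 0.208 to 0.383 CPM in the controls. For scale, 3 reads correspond to 0.136 to 0.214 CPM, and this floor covers counting error only.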

How the data were processed

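RNA-seq was measured in 8 libraries. The submitters' processing notes name STAR 2.7.3a, Partek 10.0.22.0524 and mm10. The counter, annotation and strand setting were not given in the sources used here. CPM values of 20888 genes, as the authors deposited them, have 0.0001 added, which was subtracted. Their list of 218 changed genes gives a signed fold of control over KO per the file headers, with the authors' mean CPM. Depth came from the step between low CPM values: 72.0% to 75.2% of values below 60 reads were whole within 0.02 reads, so no count model was run.

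Genes reaching 1 CPM in 4 or more libraries were fitted with limma 3.58.1 (R 4.3.3; lmFit, eBayes with trend) on log2(CPM + 1), KO minus control, two-sided. That scale understates changes of low genes. The fit was tested on simulated data. Benjamini-Hochberg adjustment ran over 13840 genes. Replicate numbers were not used as a block. Positions and exon lengths are from GENCODE M21 (mm10) by symbol, with 98.1% of tested genes given a length; exons of 13 members overlap a gene on the opposite strand, which makes their values uncertain. Promoters are from RefSeq (GRCm38.p6).

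All 40 members are named; of the other pathway lists, up to 4 called genes each, or the gene of lowest p; of each marker list, the 2 most abundant, given here mainly within sums. Jun, Fos, Hspa1a, Myc, Jchain, Mzb1, Prdm1, Tulp2, Nup62, Eif2s3x, Atf3 and Cebpb were named after their values were seen. Members and lists were chosen with earlier results of these data known. Alternatives changed pseudocount, filter, scaling, weights, block and library.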

Additional observations from a re-analysis of the deposited data

Results flagged for a closer look

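In 122 groups of 4 values checked (39 members, 10 other named genes and 12 marker sums, in each group), 12 had an end value standing apart by Dixon's criterion at 4 samples, which chance gives in about 1 in 20 groups. Of these, 7 were among the 78 groups of member values. Among the controls, the highest value stood apart for Phgdh (296 CPM), Psph (66.5 CPM), Shmt2 (164 CPM), Canx (421 CPM) and Pdia4 (123 CPM), each of them in replicate 4, and the lowest stood apart for Ern1 (6.96 CPM, replicate 3). Among the KO-labelled libraries, the highest value of Atf5 stood apart (2.89 CPM, replicate 4). Among the marker sums of the KO-labelled libraries, the highest erythroid (947 CPM), NK cell (425 CPM) and proliferation (1217 CPM) values stood apart. Among those of the controls, the highest neutrophil and monocyte sum (281 CPM) and the lowest sex-linked sum (301 CPM) stood apart.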

How the results depend on the processing

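Over all genes 488 were called, 1313 with array weights, 713 without KO-labelled replicate 4 and control replicate 4 together, and between 81 and 670 with 1 library left out. Members called as higher numbered 0 to 1 with 1 library left out and 1 under every other setting tried. Members called as lower numbered 0 to 1 with 1 library left out, 1 with array weights (Ddit4) and 1 without both replicates 4 (Ddit4, log2 change -0.66), a setting chosen after seeing the data. Other pathway genes called as higher numbered 6 with array weights and 0 to 4 with 1 library left out. The median of the feedback arm was 0.52 with a filter of 5 CPM, which removes Trib3. Of 659 member values under the alternatives, 602 kept direction and call, 49 changed sign without a call, 5 lost and 3 gained a call, and 0 reversed a call. Ppp1r15a had log2 changes of 1.09 to 1.49 and adjusted p of 0.00625 to 0.0962 over all alternatives. With the replicate number as a block, 509 genes and 1 member, Ppp1r15a, were called, and Gadd45a was not (adjusted p = 0.0631). Same-numbered libraries did not deviate together throughout (correlations 0.149, 0.0652, -0.103 and 0.176), so the numbers were not taken as pairs. Changes of low genes such as Trib3, Atf5 and Asns are limited by depth.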
